A study of Mus musculus with 3 samples.

Results

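The genes described here are the collagen genes of the mouse fetal ovary, taken as every gene in the count tables whose symbol is Col, a number, the letter a and a number. There were 44 such genes among the 18738 genes listed in at least 1 of the tables. By the fibrils or networks that their chains are known to form, 11 were placed as fibrillar (Col1a1, Col1a2, Col2a1, Col3a1, Col5a1, Col5a2, Col5a3, Col11a1, Col11a2, Col24a1 and Col27a1), 6 as basement membrane (Col4a1 to Col4a6) and 27 as other. The study prepared fetal ovarian somatic cells (FOSCs) as frozen stocks for building reconstituted ovaries, and profiled 3 thawed lots, named 26, 29 and 30, by droplet single-cell RNA-seq with the 10X Genomics 3′ kit. All lots were of 1 kind: ovaries of CD1 embryos at E12.5, each lot pooled from the litters of 10 pregnant mice, freed of mesonephros, dissociated with trypsin, depleted of germ cells on magnetic beads against SSEA1 and CD31, and cryopreserved, with no treatment or genetic change named. CD31 is the product of Pecam1 and is also carried by endothelium, so the germ cells and endothelial cells described below are those that the beads left behind.

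Collagen chains wind together into a stiff triple helix, and collagens are the main structural proteins of the extracellular matrix. Fibrillar collagens are secreted mostly by mesenchymal cells, are trimmed at their ends, line up into fibrils and give tissue its tensile strength, while collagen IV forms the sheet-like network of the basement membrane under epithelia and around vessels. Other collagens decorate fibrils, make beaded filaments that link cells to the matrix, or cross the plasma membrane. In the developing ovary, basement membrane surrounds the cords of germ cells and pre-granulosa cells and lies under the surface epithelium and the vessels, with stroma between them.

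After barcodes with 200 to 9000 genes and at most 10% mitochondrial UMIs (unique molecular identifiers, which mark single captured molecules) were kept, 28971 of 29103 barcodes remained, with median UMI counts per cell of 11126, 8949 and 11595 in lots 26, 29 and 30. Cells were clustered without the collagen genes and their pathway genes, so that no cell class rests on the genes compared, and clusters were named from marker lists as "X-like". The stromal list held the matrix genes Dcn, Lum and Mfap4, which were not held out of the clustering. The stromal-like class is therefore not independent of matrix genes other than those compared. The classes were pre-granulosa-like (12792 cells), stromal-like (6443), epithelial-like (6024), germ-like (1474), Sertoli-like (390), endothelial-like (349), macrophage-like (135), mesonephric-tubule-like (78), red-blood-cell-like (77) and chromaffin-and-Schwann-like (53), and 1156 cells stayed unnamed. The cluster called macrophage-like was led by the neutrophil genes S100a8 and S100a9 beside the macrophage gene C1qb, and so carried markers of more than 1 kind of myeloid cell. The summed level of the 8 stromal markers was 2598 to 2833 CPM over the lots in stromal-like cells and 164 to 198 in pre-granulosa-like cells, that of the endothelial markers was 2425 to 3775 in endothelial-like cells and 57 to 68.9 in stromal-like cells, and that of the Sertoli markers was 6231 to 8579 in Sertoli-like cells and 98.7 to 142 in pre-granulosa-like cells. Sertoli cells are the supporting cells of the testis, and the study described those in its lots as contaminating and left them out of further analysis. The Sertoli-like cells were spread unevenly, with 88, 286 and 16 cells in the 3 lots. Lots shared 20 to 30 cell barcodes in pairs, at most 0.350% of the smaller lot, and the cells that shared a barcode correlated with each other (median r 0.639 to 0.678) much as cells of different barcodes did (0.625 to 0.670). In each of the 5 largest tested classes, lot 29, the shallowest, was the lowest lot for 19 to 24 of the 28 collagen genes described below, beside 49.8 to 60.4% of all genes tested.

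Levels are given in CPM, the UMIs of a gene per 1000000 UMIs of all genes, summed over the cells of 1 class and 1 lot, with the mean and SD over the 3 lots (n = 3 throughout). Each UMI marks the 3′ end of a transcript and is not divided by gene length, so a level is compared between classes for 1 gene and not between genes. Since each lot is 1 pool, the lots are the replicates and cells are not. Differences between classes were tested on summed UMI counts with edgeR's quasi-likelihood test, adjusted over all 14454 genes that passed a filter on low counts, and a gene is called at an adjusted p under 0.05. Of the 44 genes, 35 passed that filter, and Col4a3, Col5a3, Col8a1, Col10a1, Col11a2, Col17a1, Col19a1, Col20a1 and Col28a1 did not.

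Collagen transcripts differed in kind between the cell classes. Summed over the 11 fibrillar genes, stromal-like cells held 2165, 1779 and 1951 CPM in lots 26, 29 and 30, epithelial-like cells 709, 486 and 484, and pre-granulosa-like cells 222, 161 and 188. The fibrillar totals of the stromal-like class lay above those of every other class in all lots, and those of the epithelial-like class lay above the pre-granulosa-like ones. Over the 6 basement membrane genes, endothelial-like cells held 2164, 973 and 1391 CPM, stromal-like cells 509, 417 and 452, pre-granulosa-like cells 264, 198 and 225 and epithelial-like cells 176, 123 and 142. The order of epithelial-like and pre-granulosa-like cells thus turned round between the 2 kinds, and the endothelial-like lots lay above all other named classes while spreading more widely than any of the others. For the 27 other collagens, the Sertoli-like class was highest, at 2746, 2717 and 2356 CPM, followed by stromal-like cells at 836, 613 and 759 and endothelial-like cells at 975, 417 and 668, whose lots overlapped. Over all 44 genes, the totals were 3322 ± 246 CPM in Sertoli-like, 3161 ± 351 in stromal-like, 2452 ± 955 in endothelial-like, 946 ± 192 in epithelial-like, 756 ± 90.5 in pre-granulosa-like and 329 ± 100.3 in germ-like cells.

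**Figure D1:**
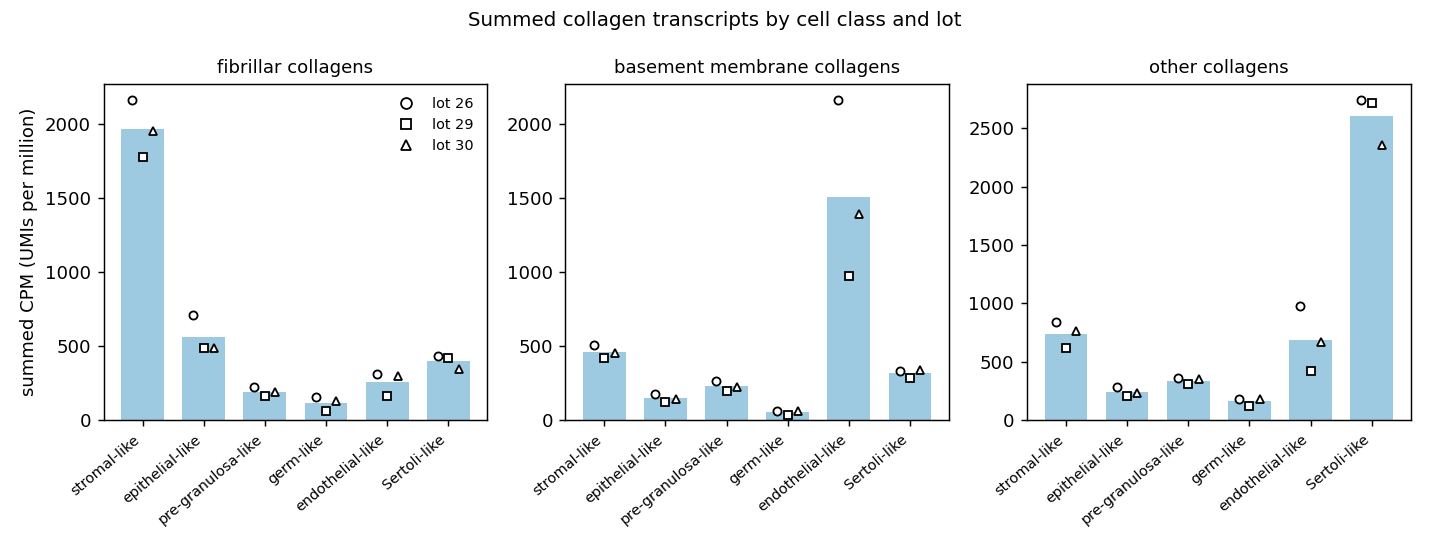
Summed CPM of fibrillar, basement membrane and other collagens, 1 panel for each kind, by cell class on the horizontal axis; bars are means over 3 lots and points are the lots. Fibrillar collagens stand highest in stromal-like cells (1779 to 2165 CPM), basement membrane collagens in endothelial-like cells (973 to 2164) and other collagens in Sertoli-like cells (2356 to 2746).

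As a share of all collagen UMIs, fibrillar collagens made up 62.2% ± 0.94 in the stromal-like class and 59% ± 2.13 in the epithelial-like class, but 25.1% ± 1.13 in pre-granulosa-like cells, 12% ± 0.486 in Sertoli-like cells and 10.6% ± 1.76 in endothelial-like cells. Taken as whole classes, stromal-like and epithelial-like cells had a similar make-up, although no lots of their totals overlapped. The epithelial-like class was uneven within, with most of its collagen genes highest in the cluster led by Krt19, Hoxd11 and Hand2, as described below. Basement membrane collagens were 61.5% ± 2.11 of the collagen UMIs of endothelial-like cells and 30.2% ± 0.933 of those of pre-granulosa-like cells. In Sertoli-like cells 78.4% ± 1.08 of collagen UMIs came from other collagens.

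The levels of single genes were ranked over the 9 named classes with at least 10 cells in every lot, which leaves out the chromaffin-and-Schwann-like class with its 9 cells in lot 30. Of the 44 genes, 28 reached a mean of 10 CPM in at least 1 of these 9 classes, and they comprised 8 fibrillar, 4 basement membrane and 16 other collagens. Stromal-like cells were the highest class for 15 of them, Sertoli-like cells for 8, endothelial-like cells for 3, and pre-granulosa-like and mesonephric-tubule-like cells for 1 each. The lots of the highest class did not overlap those of the next class for 25 of the 28, the exceptions being Col4a5, Col8a2 and Col25a1, beside 43.7% of all 11405 genes that reached 10 CPM in a class. Over the 9 classes, the other 16 genes had a highest class mean between 0.177 CPM (Col28a1) and 6.71 CPM (Col6a6), while in the class left out Col7a1, the anchoring fibril collagen, was at 18.2, 13.7 and 13.9 CPM. Among these 16, the germ-like class was highest for Col5a3, at 1.72, 0.877 and 1.7 CPM, and for Col17a1, at 0.856 ± 0.431, and the Sertoli-like class was highest for Col11a2, at 3.33 ± 2.07.

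**Figure D2:**
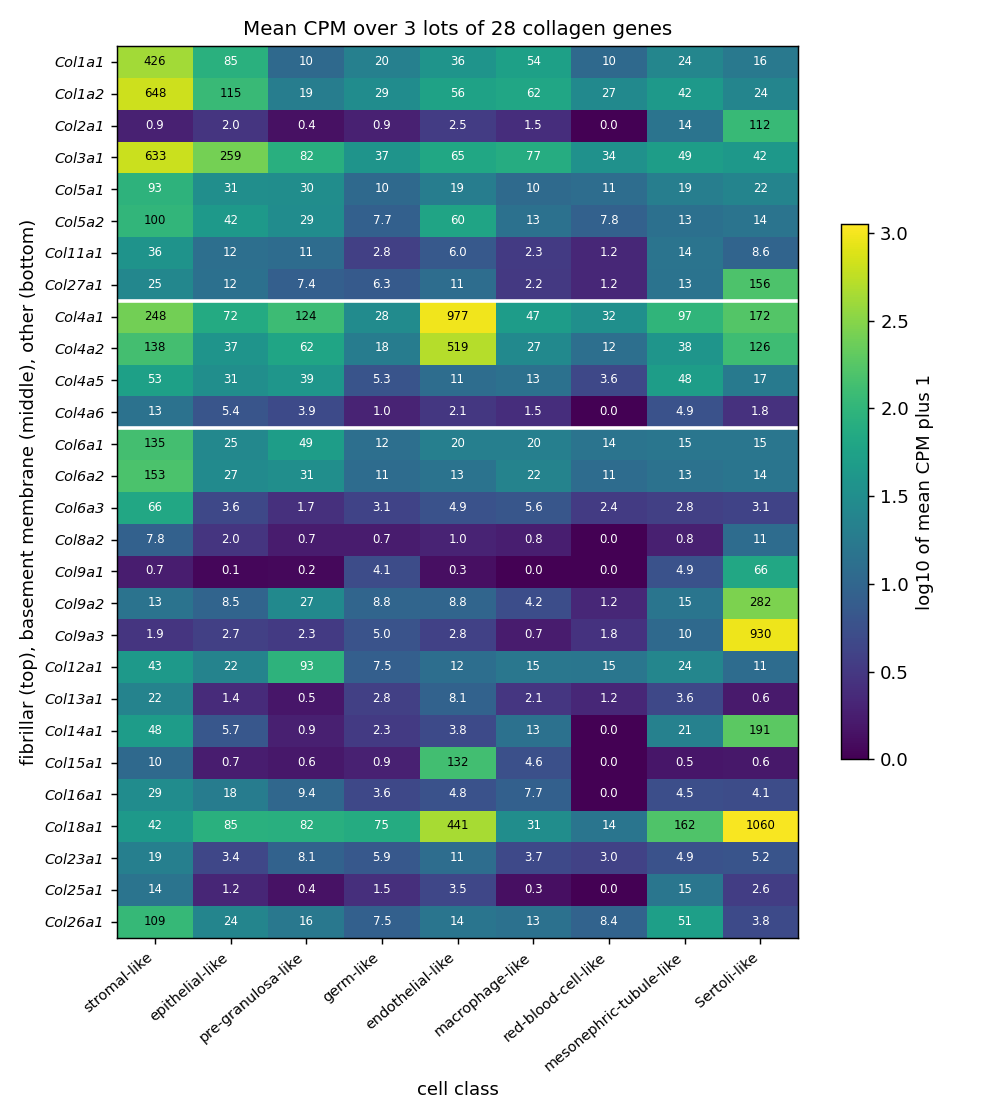
Mean CPM over 3 lots of the 28 collagen genes that reached 10 CPM in a named class with at least 10 cells in every lot (rows, fibrillar at the top, basement membrane in the middle, other at the bottom) in those 9 cell classes (columns, the chromaffin-and-Schwann-like class being left out); colour is log10 of the mean CPM plus 1, and each cell prints the mean CPM. The stromal-like column is bright for Col1a1, Col1a2 and Col3a1 (426 to 648 CPM), the endothelial-like column for Col4a1, Col4a2 and Col18a1 (441 to 977), and the Sertoli-like column for Col9a3 and Col18a1 (930 and 1060).

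The fibrillar collagens of the stroma were led by the genes of collagens I and III. Col1a1 (chr11:94936224-94953042 in GRCm38, plus strand) encodes the alpha-1 chain of collagen I, the main fibril of most connective tissue, and its level in lots 26, 29 and 30 was 476, 379 and 422 CPM for stromal-like, 121, 64.4 and 68.4 for epithelial-like and 11.5, 7.72 and 11.1 for pre-granulosa-like cells. Its partner chain Col1a2 (chr6:4504814-4541544, plus strand) was at 687, 609.6 and 648 CPM in stromal-like cells, against 133, 112 and 101 in the epithelial-like and 22.2, 14.6 and 19.5 in the pre-granulosa-like class. In both genes the 3 classes were in the same order in every lot and no lots overlapped. Stromal-like cells were higher than pre-granulosa-like cells for Col1a1 (log2 fold change 5.27, SE 0.38, edgeR adjusted p = 4.17e-11) and for Col1a2 (log2 fold change 4.99, SE 0.32, edgeR adjusted p = 5.59e-12). Epithelial-like cells lay between, higher than pre-granulosa-like cells for Col1a1 by a log2 fold change of 3.00 (SE 0.35, edgeR adjusted p = 1.6e-07) and lower than stromal-like cells, which exceeded them by 2.26 (SE 0.33, edgeR adjusted p = 6.83e-06).

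Col3a1 (chr1:45311538-45349706, plus strand) encodes the chain of collagen III, which forms fibrils with collagen I in compliant tissue. Its levels were 708, 568 and 625 CPM in stromal-like, 331, 227 and 219 in epithelial-like and 100.4, 70.6 and 76.2 in pre-granulosa-like cells, again without overlap. The steps between classes were smaller than those of Col1a1, with a log2 fold change of 2.82 (SE 0.28, edgeR adjusted p = 9.49e-09) for stromal-like against pre-granulosa-like cells and 1.22 (SE 0.26, edgeR adjusted p = 0.000832) against epithelial-like cells. In germ-like cells Col3a1 was lower than in pre-granulosa-like cells (36.9 ± 16.6 against 82.4 ± 15.8 CPM, log2 fold change -1.26, SE 0.27, edgeR adjusted p = 0.000233).

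Of the minor fibrillar chains, which are built into the fibrils of collagens I and II and limit their width, Col5a1, Col5a2 and Col11a1 were highest in the stroma as well, unlike Col5a3 and Col11a2. Col5a1 (chr2:27886425-28039514, plus strand) had 112, 73.2 and 94.5 CPM in stromal-like and 34.3, 24.7 and 31 in pre-granulosa-like cells (log2 fold change 1.51, SE 0.22, edgeR adjusted p = 3.49e-06). Col5a2 had 112, 90.3 and 98.9 CPM in stromal-like cells and, as the next class, 72.7, 42 and 64.3 in endothelial-like cells. Col11a1 (chr3:114030540-114220718, plus strand) had 39.9, 34.7 and 32.1 CPM in stromal-like cells and 11.8, 9.53 and 11.5 in pre-granulosa-like cells (log2 fold change 1.57, SE 0.17, edgeR adjusted p = 2.71e-08). No lots overlapped in any of these 3 pairs of classes.

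To place these stromal genes beside the DNA that precedes them, the 250 bases before the RefSeq start of Col3a1, Col5a1 and Col11a1 are given, since these are fibrillar genes that share the stroma as their highest class and for which a promoter sequence with no exon base was at hand. They lie at chr1:45311288-45311537, chr2:27886175-27886424 and chr3:114030290-114030539 in GRCm38.p6, each on the plus strand and written 5′ to 3′, and capitals mark any of 3 short motifs on either strand, namely TATAA (as in a TATA box), CCAAT (as in a CCAAT box) and GGGCGG (as in a GC box).
Col3a1: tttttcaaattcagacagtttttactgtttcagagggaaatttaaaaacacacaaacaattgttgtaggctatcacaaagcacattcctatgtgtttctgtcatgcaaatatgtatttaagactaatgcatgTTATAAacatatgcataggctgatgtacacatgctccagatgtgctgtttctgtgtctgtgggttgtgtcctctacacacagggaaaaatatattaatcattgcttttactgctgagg
Col5a1: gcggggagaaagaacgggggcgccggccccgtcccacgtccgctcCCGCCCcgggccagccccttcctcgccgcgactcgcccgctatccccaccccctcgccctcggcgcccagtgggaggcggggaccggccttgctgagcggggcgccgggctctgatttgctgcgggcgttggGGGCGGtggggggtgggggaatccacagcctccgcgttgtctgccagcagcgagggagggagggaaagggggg
Col11a1: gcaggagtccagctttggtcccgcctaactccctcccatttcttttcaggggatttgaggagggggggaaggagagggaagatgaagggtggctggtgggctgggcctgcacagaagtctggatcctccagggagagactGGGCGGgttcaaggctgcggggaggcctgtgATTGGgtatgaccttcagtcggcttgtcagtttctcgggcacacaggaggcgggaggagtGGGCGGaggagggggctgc
The Col3a1 stretch held TATAA, the Col5a1 stretch GGGCGG, and the Col11a1 stretch both CCAAT and the GC box letters, so the 3 genes had no motif in common. A match is a description of these letters and not a binding site, and a missing match says nothing about the factor.

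RefSeq windows from 250 bases before to 50 bases after a start were at hand for 35 of the 44 collagen genes (38 windows), and those of Col1a1, Col2a1, Col4a3, Col5a2, Col9a3, Col12a1, Col14a1, Col22a1 and Col26a1 were not used here. GGGCGG was in 23 of the 38 collagen windows (60.5%) and in 35.7% of the 32851 windows of all genes. CCAAT was in 13 collagen windows (34.2%, against 37.4% of all windows) and TATAA in 7 (18.4%, against 24.9%). The 3 motifs do not contain one another, and both strands were searched.

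Collagen VI makes beaded filaments close to the cell surface, and its 3 main chains were highest in the stroma. Col6a1 had 159.9, 106 and 140.3 CPM in stromal-like and 54.8, 44.2 and 48.9 in pre-granulosa-like cells (log2 fold change 1.33, SE 0.25, edgeR adjusted p = 9.68e-05). For Col6a2 the levels were 187, 113 and 159 CPM against 34.4, 27.1 and 31.7 (log2 fold change 2.17, SE 0.23, edgeR adjusted p = 2.04e-08). Col6a3, the long chain that carries most of the protein's side domains, showed the sharpest step, with 78.3, 50.3 and 68.9 CPM against 1.95, 0.923 and 2.12 (log2 fold change 5.12, SE 0.26, edgeR adjusted p = 9.76e-14). In none of the 3 genes did the lots of the 2 classes overlap. Epithelial-like cells had less Col6a1 than pre-granulosa-like cells (25.4 ± 6.35 against 49.3 ± 5.33 CPM, log2 fold change -1.01, SE 0.25, edgeR adjusted p = 0.00213) but more Col6a3 (3.55 ± 0.63 against 1.67 ± 0.648 CPM, log2 fold change 1.0, SE 0.27, edgeR adjusted p = 0.00413).

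Several collagens of other kinds were also highest in the stroma. Col13a1, a membrane-spanning collagen of cell junctions, had 22.6, 19 and 24.5 CPM in stromal-like cells and 0.549 ± 0.139 in pre-granulosa-like cells (log2 fold change 5.15, SE 0.27, edgeR adjusted p = 1.25e-13). Col23a1, another membrane-spanning collagen, had 22.2, 16 and 20.3 CPM in stromal-like cells and 8.05 ± 2.01 in pre-granulosa-like cells (log2 fold change 1.15, SE 0.20, edgeR adjusted p = 5.04e-05). Col26a1 had 115, 99.4 and 112 CPM in stromal-like cells, above the 51.5 ± 19.5 of mesonephric-tubule-like cells and the 15.7 ± 2.57 of pre-granulosa-like cells (log2 fold change 2.67, SE 0.15, edgeR adjusted p = 8.28e-13 against the latter). The lots of stromal-like and pre-granulosa-like cells did not overlap in any of these 3 genes. Col16a1, a fibril-associated collagen, had 30.8, 25.4 and 31.4 CPM in stromal-like cells and 9.36 ± 2.1 in pre-granulosa-like cells (log2 fold change 1.52, SE 0.17, edgeR adjusted p = 1.58e-07). Col25a1, a membrane-spanning collagen of nerve and muscle, was an exception in rank, since its 10.1, 18 and 15.6 CPM in the 78 mesonephric-tubule-like cells overlapped its 14.1, 13.5 and 14.3 CPM in stromal-like cells.

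Of the 35 tested collagens, 26 were higher in stromal-like than in pre-granulosa-like cells, where 22.6% of all genes tested were called higher, and 4 were lower, where 26.1% of all genes were. By kind, 8 of 9 fibrillar, 4 of 5 basement membrane and 14 of 21 other collagens were higher, and the median log2 fold change was 1.64 for the collagens and -0.03 for all genes. The 4 that were lower in the stroma were Col9a2 (-1.15), Col12a1 (-1.23), Col18a1 (-1.09) and Col22a1 (-1.26). Against epithelial-like cells, 31 of the 35 were higher in stromal-like cells (16.9% of all genes) and 1 was lower (14.5% of all genes), and the medians were 1.81 for the collagens and -0.004 for all genes. The 1 lower gene was Col18a1 (log2 fold change -1.09, SE 0.21, edgeR adjusted p = 0.000191). Leaving out lot 29 raised the count of lower genes from 1 to 2, and a fit with the lot as a block gave 3.

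**Figure D3:**
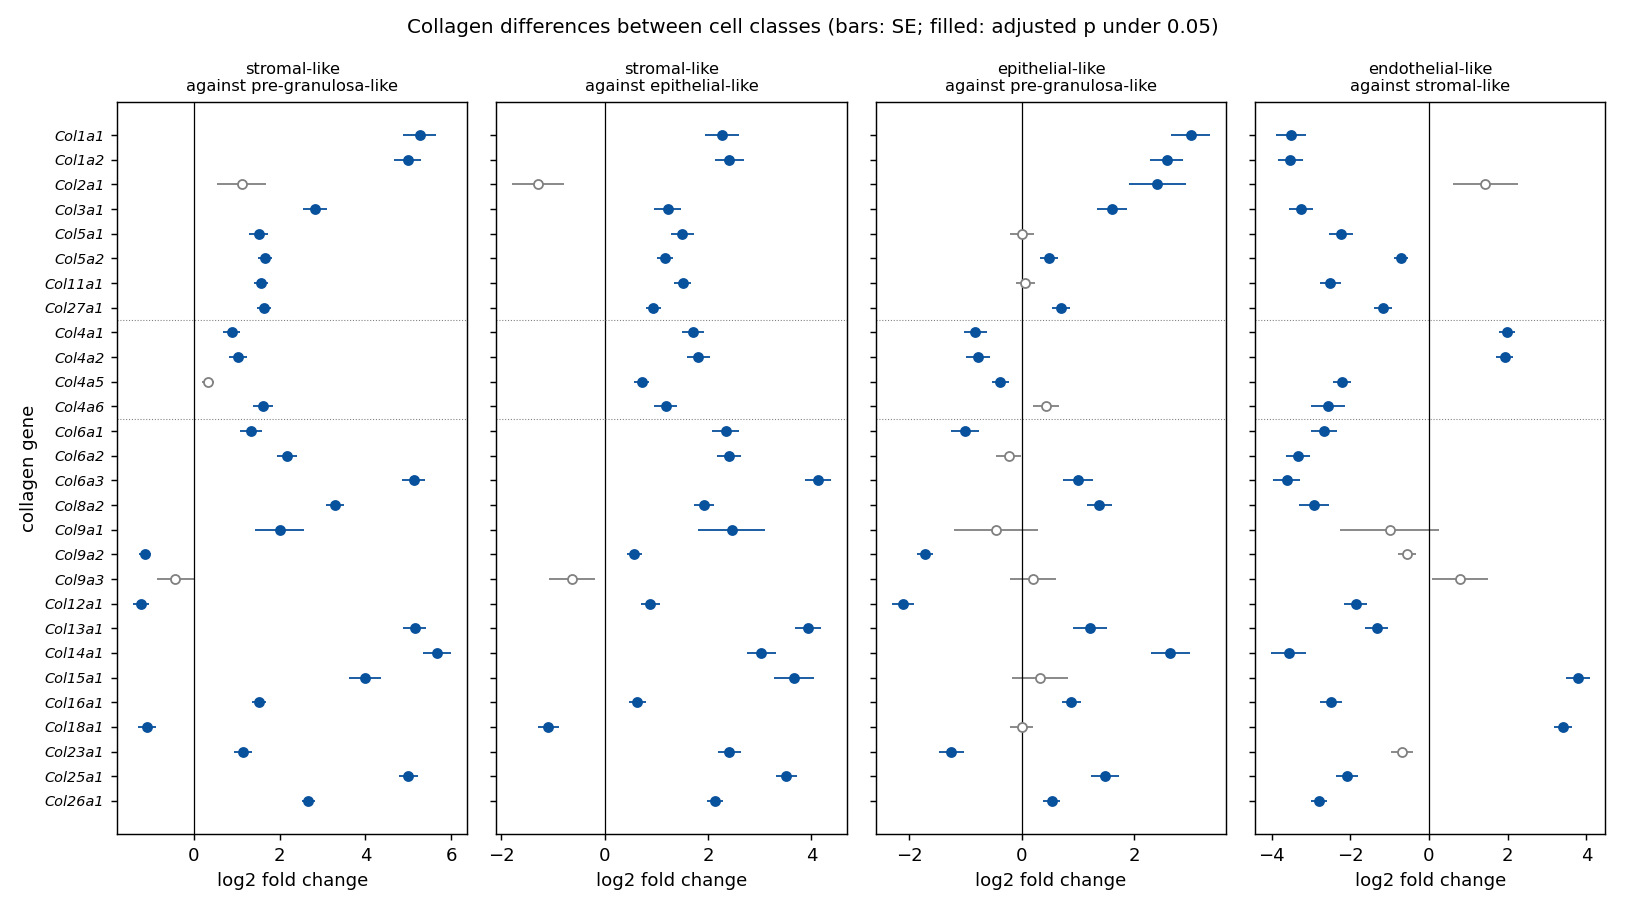
Log2 fold change (horizontal axis) of the 28 collagen genes ranked above, in 4 comparisons between cell classes; points are edgeR estimates, bars are SE, and filled points have an adjusted p under 0.05. Most points lie to the right in both stromal-like panels and to the left in the endothelial-like panel, where Col4a1, Col4a2, Col15a1 and Col18a1 lie to the right (1.93 to 3.78).

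Among the 9 ranked classes, Col12a1 was the 1 described collagen that was highest in pre-granulosa-like cells. It encodes a fibril-associated collagen that binds the surface of collagen I fibrils, and its levels were 89.2, 87.3 and 101 CPM for pre-granulosa-like, 45.1, 33.3 and 50.4 for stromal-like, 24.7, 15.2 and 26.1 for epithelial-like and 9.08, 3.51 and 9.89 for germ-like cells. The pre-granulosa-like lots lay above all the others. The log2 fold change was -1.23 (SE 0.19, edgeR adjusted p = 6.96e-06) for stromal-like against pre-granulosa-like cells, -2.12 (SE 0.19, edgeR adjusted p = 4.51e-09) for epithelial-like cells and -3.67 (SE 0.23, edgeR adjusted p = 1.14e-12) for germ-like cells. Col9a2, a chain of the fibril-associated collagen IX, was also lower in the stroma than in pre-granulosa-like cells, at 16.2, 11.1 and 13 against 29.6, 25.8 and 26.5 CPM.

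Epithelial-like cells set fibrillar against basement membrane collagens. Of the 35 tested genes, 15 were higher in epithelial-like than in pre-granulosa-like cells (20.4% of all genes tested) and 11 were lower (25% of all genes), with a median of 0.20 against -0.05 for all genes. Among the fibrillar collagens 6 of 9 were higher and 0 lower, while among the 5 basement membrane collagens 1 was higher and 3 were lower. The 8 stromal markers moved along with the fibrillar genes, at 809 to 1018 CPM in epithelial-like against 164 to 198 in pre-granulosa-like cells, and the part of stromal RNA in the difference was not tested. The 3 lower ones were Col4a1, at 86.3, 61.1 and 69.1 CPM against 139, 109.5 and 123 (log2 fold change -0.83, SE 0.20, edgeR adjusted p = 0.0017), Col4a2, at 37.3 ± 6.91 against 61.8 ± 9.9 (log2 fold change -0.78, SE 0.21, edgeR adjusted p = 0.00435), and Col4a5, at 30.8 ± 5.37 against 38.7 ± 7.31 (log2 fold change -0.38, SE 0.15, edgeR adjusted p = 0.0355). The lots of Col4a5 overlapped, and its call was lost without lot 26 and without lot 30. The call of Col4a2 was lost without lot 30. Col18a1, whose product carries heparan sulfate in basement membranes, had 84.8 ± 11.8 CPM in epithelial-like and 82 ± 6.9 in pre-granulosa-like cells, a log2 difference close to 0 (SE 0.20) that was not called.

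Among named classes, the main chains of collagen IV were highest in the vessel lining. Its alpha-1 and alpha-2 chains, which form the network present in all basement membranes, are encoded by Col4a1 (chr8:11198423-11312826, minus strand) and Col4a2 (chr8:11312805-11449287, plus strand), which start head to head and share 22 exonic bases on opposite strands. Col4a1 had 1386, 652 and 892 CPM in endothelial-like cells and 272, 233 and 239.8 in stromal-like cells (log2 fold change 1.99, SE 0.21, edgeR adjusted p = 5.12e-08). Col4a2 had 763, 315 and 479 CPM against 155, 123 and 136 (log2 fold change 1.93, SE 0.22, edgeR adjusted p = 1.73e-07). The endothelial-like lots lay above the stromal-like ones for both genes, although they spread widely, with lot 29 lowest and lot 26 highest. In pre-granulosa-like cells the levels were 139, 109.5 and 123 CPM for Col4a1 and 72.2, 52.5 and 60.7 for Col4a2, and stromal-like cells exceeded them by a log2 fold change of 0.88 (SE 0.20, edgeR adjusted p = 0.000817) for Col4a1 and 1.03 (SE 0.21, edgeR adjusted p = 0.000254) for Col4a2. Germ-like cells were lower again than pre-granulosa-like cells, with 31.8, 17.7 and 35.8 CPM of Col4a1 (log2 fold change -2.23, SE 0.22, edgeR adjusted p = 2.61e-09).

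Among the tested classes, endothelial-like cells also led in the multiplexins, collagens XV and XVIII, which lie at the outer face of basement membranes. Col15a1 had 223, 48.5 and 124 CPM in endothelial-like cells against 10.4, 9.52 and 9.79 in stromal-like cells (log2 fold change 3.78, SE 0.30, edgeR adjusted p = 1.83e-09). Col18a1 had 599, 288 and 436 against 48.3, 38 and 39.5 CPM (log2 fold change 3.41, SE 0.22, edgeR adjusted p = 1.76e-11). No lots overlapped in either gene, but the endothelial-like lots of Col15a1 spread widely, lot 29 again being lowest. Col15a1 is shown as the endothelial gene for comparison with the stromal ones, through the 250 bases before its RefSeq start at chr4:47207762-47208011 in GRCm38.p6, plus strand.
Col15a1: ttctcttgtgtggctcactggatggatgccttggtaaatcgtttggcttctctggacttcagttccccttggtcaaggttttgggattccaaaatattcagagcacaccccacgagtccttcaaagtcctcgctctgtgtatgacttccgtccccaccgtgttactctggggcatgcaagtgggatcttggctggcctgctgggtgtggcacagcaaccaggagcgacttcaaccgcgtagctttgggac
This stretch held none of the 3 motifs.

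The other collagen IV chains differed from Col4a1 and Col4a2. Col4a5 and Col4a6, whose starts lie 1308 bases apart on opposite strands of chromosome X (chrX:141475385-141689234 and chrX:141165403-141474076), were lower in endothelial-like than in stromal-like cells. Col4a5 had 12, 5.82 and 16.4 against 58.9, 44.5 and 55.9 CPM (log2 fold change -2.21, SE 0.23, edgeR adjusted p = 3.54e-08), and Col4a6 had 2.67, 0 and 3.57 against 14.8, 9.52 and 14.5 (log2 fold change -2.56, SE 0.44, edgeR adjusted p = 7.21e-05). These chains are known from smooth muscle and epithelial basement membranes. Col4a5 in pre-granulosa-like cells, at 46.7, 32.3 and 37.1 CPM, was not called different from the stroma (log2 fold change 0.33, SE 0.14, edgeR adjusted p = 0.0599). Col4a4 was at 7.8, 6.11 and 5.33 CPM in stromal-like cells and 0.552 ± 0.0603 in pre-granulosa-like cells (log2 fold change 3.39, SE 0.28, edgeR adjusted p = 5.13e-09), and Col4a3, its partner in the kidney filter, was not tested, at 0.906 ± 0.105 CPM in stromal-like cells.

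Of the 35 tested collagens, 4 were higher in endothelial-like than in stromal-like cells (14.1% of all genes tested) and 24 were lower (21.4% of all genes), with a median of -2.23 against -0.14 for all genes. The 4 higher genes were Col4a1, Col4a2, Col15a1 and Col18a1, and in every fit without 1 of the lots 4 genes were higher. Collagens I and III were lower, with log2 fold changes of -3.51 for Col1a1, -3.52 for Col1a2 and -3.26 for Col3a1. Col5a2 was also lower (log2 fold change -0.71, SE 0.18), a call that was lost without lot 30. Col24a1 had no UMI in endothelial-like cells, which allows up to 0.505 CPM at a floor of 3 counts over the class, against 1.62 ± 0.337 CPM in stromal-like cells. Endothelial-like cells also carried 245 to 350.1 CPM of the stromal markers and 229 UMIs of Col1a1, with Col1a1 at 46.7, 10.3 and 52.2 CPM in the lots. Their fibrillar total was 256 ± 83.7 CPM with all cells and 172 CPM with called doublets removed, and the part of stromal RNA in it was not tested.

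Since the 2 chains of a pair can be built into the same helix, the UMI ratios of chain pairs were compared between classes. Col1a1 to Col1a2 was 0.66 ± 0.04 in stromal-like, 0.72 ± 0.17 in epithelial-like and 0.54 ± 0.03 in pre-granulosa-like cells. Both genes were low in pre-granulosa-like cells, and the part of stromal RNA in the ratio there was not tested. Col4a1 to Col4a2 was 1.92 ± 0.14 in endothelial-like, 1.94 ± 0.08 in epithelial-like, 2.01 ± 0.08 in pre-granulosa-like, 1.81 ± 0.07 in stromal-like and 1.38 ± 0.11 in Sertoli-like cells. The levels of these genes differed far more between the classes than their ratios did. Col5a1 to Col5a2 was 0.92 ± 0.10 in stromal-like cells but 0.31 ± 0.03 in endothelial-like cells, and Col4a5 to Col4a6 was 4.17 ± 0.45 in stromal-like, 5.71 ± 0.44 in epithelial-like and 10.1 ± 0.989 in pre-granulosa-like cells. Col6a1 to Col6a2 was 0.89 ± 0.04 in stromal-like and 1.59 ± 0.04 in pre-granulosa-like cells. The ratios are descriptions without a test, and 1 transcript per UMI of each gene is assumed.

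The stromal-like class held 4 clusters, among which the fibrillar genes peaked in a different cluster from Col4a1 and Col4a2. The cluster led by Lum and Dcn (1050 cells) had 955, 786 and 1022 CPM of Col1a1 in the 3 lots, 1579.9, 1393 and 1745 of Col3a1 and 264, 181 and 270 of Col6a1. The dividing cluster (1930 cells) had 463, 267 and 358 CPM of Col1a1, 722, 475 and 564 of Col3a1 and 153, 96.5 and 128 of Col6a1. For Col4a1 the order was the other way. Its level was 155, 99.5 and 125 CPM in the cluster led by Lum and Dcn and 329.7, 321 and 300.4 in the dividing one. Col4a5 and Col4a6 went with the fibrillar genes, being highest in the cluster led by Lum and Dcn in every lot. Of the 23 collagen genes at 10 CPM or more in stromal-like cells, 19 were highest in the cluster led by Lum and Dcn, 16 of them in every lot, and 2 were highest in the dividing cluster in every lot, namely Col4a1 and Col4a2. The cluster led by Foxd1 and Dkk2 (821 cells) had the other 2 and stood second for Col1a1, at 572, 774 and 640.3 CPM, with 141 ± 20.3 of Col4a1. Col1a1 was itself among the leading genes of the cluster led by Lum and Dcn, though it had no part in the clustering, and clusters were compared without a test.

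**Figure D4:**
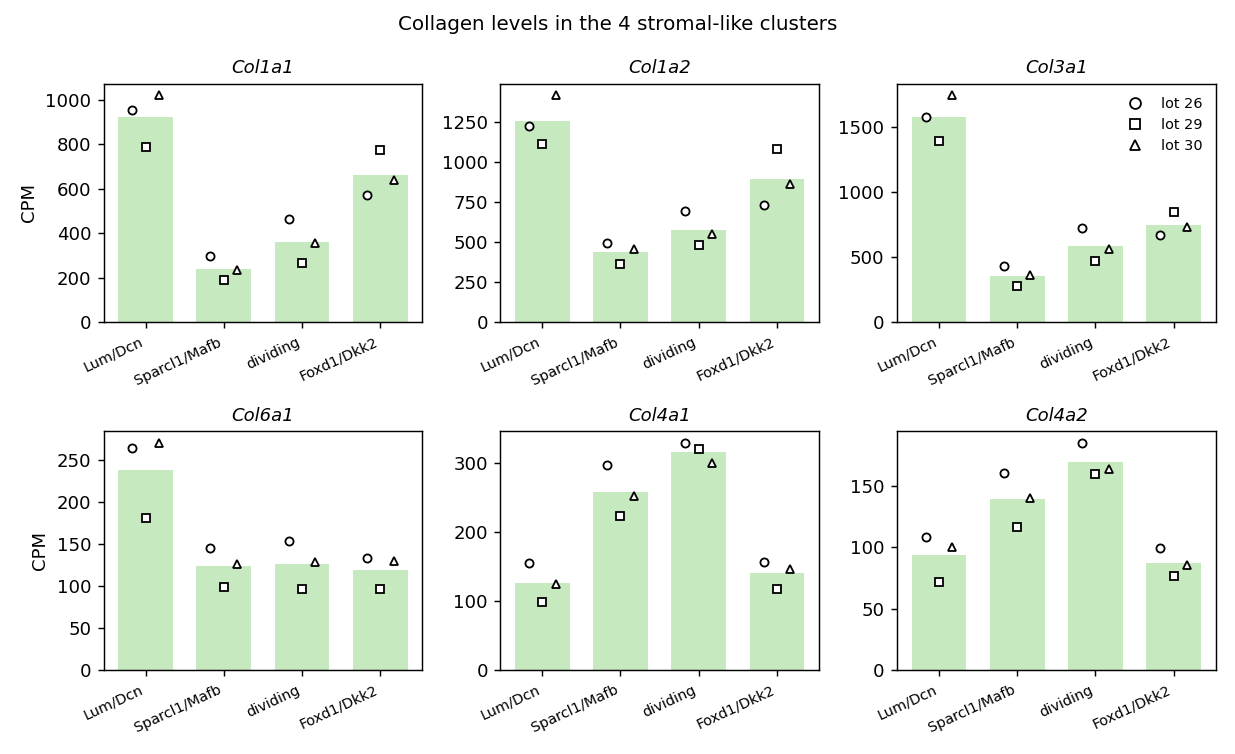
CPM of Col1a1, Col1a2, Col3a1, Col6a1, Col4a1 and Col4a2, 1 panel each, in the 4 stromal-like clusters (horizontal axis); bars are means over 3 lots and points are the lots. The cluster led by Lum and Dcn is highest for the fibrillar genes (Col1a1 786 to 1022 CPM), and the dividing cluster for Col4a1 (300.4 to 329.7).

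Within the epithelial-like class, collagens were unevenly spread as well. Of the 16 genes at 10 CPM or more there, 13 were highest in the cluster led by Krt19, Hoxd11 and Hand2 (990 cells). These 13 were highest there in every lot. The other 3 were highest in the non-dividing cluster led by Upk3b and Krt7, 1 of them in every lot. Col1a1 was at 369, 165 and 212 CPM in the Hand2 and Hoxd11 cluster and at means of 43.3 ± 9.25, 90.4 ± 44.7 and 50.5 ± 11.6 in the others. Col3a1 was at 787, 484 and 509.9 CPM there, beside 708, 568 and 625 in stromal-like cells. Among the 15 genes at 10 CPM or more in pre-granulosa-like cells, 9 were highest in the cluster led by Pax8 and Aldh1a3 (811 cells) and 1 in the cluster led by Hspa1a, of whose 2870 cells 2645 came from lot 30.

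The share of cells with at least 1 UMI was counted after every cell was thinned to 4000 UMIs, which leaves out the 140 stromal-like and 62 pre-granulosa-like cells below that depth, so that classes of unequal depth could be set side by side. For Col1a1 the share was 62% of stromal-like cells (95% exact binomial interval 60.8 to 63.2%, 78.3% before thinning), 21.7% of epithelial-like cells (44.2% before), 6.96% of germ-like cells (21% before) and 3.57% of pre-granulosa-like cells (9.16% before). Red-blood-cell-like cells, which should lack the gene, showed 5.41% of 74 cells (interval 1.49 to 13.3%), with a median of 9210 UMIs per cell before thinning against 10045.5 in pre-granulosa-like and 9282 in stromal-like cells. The Col1a1 shares of pre-granulosa-like and germ-like cells lay within this interval and are not read as expression. Nor are they read as its absence, since an interval from 74 cells is too wide to decide. Germ-like cells were also deeper, at a median of 21213.5 UMIs before thinning, so thinning acted more strongly on them. For Col3a1 the shares were 75.9% of stromal-like, 52.5% of epithelial-like, 25.4% of pre-granulosa-like and 5.41% of red-blood-cell-like cells. Col4a1 was found in 93.3% of endothelial-like, 46.3% of stromal-like, 36.4% of pre-granulosa-like and 9.46% of red-blood-cell-like cells. Col9a3 was found in 91.9% of Sertoli-like and 1.02% of pre-granulosa-like cells, beside 1.35% of red-blood-cell-like ones. Col12a1 was found in 28.4% of pre-granulosa-like, 13.4% of stromal-like and 2.7% of red-blood-cell-like cells. The intervals and floors cover counting error only.

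Germ-like cells had the lowest collagen total of the 6 classes summed above. Of the 35 tested genes, 7 were higher in germ-like than in pre-granulosa-like cells (35.2% of all genes tested) and 20 were lower (39.1% of all genes), with a median of -1.05 against -0.06 for all genes. The largest increase was in Col9a1, a chain of collagen IX, at 5.04, 4.38 and 2.9 CPM in germ-like against 0.0848, 0.297 and 0.121 in pre-granulosa-like cells (log2 fold change 4.60, SE 0.50, edgeR adjusted p = 8.45e-08), without overlap. Col13a1 was at 3.16, 2.48 and 2.8 against 0.445, 0.495 and 0.707 CPM (log2 fold change 2.23, SE 0.32, edgeR adjusted p = 1.24e-06) and Col25a1 at 1.83, 1.32 and 1.5 against 0.445, 0.462 and 0.311 (log2 fold change 1.88, SE 0.28, edgeR adjusted p = 3.11e-06). Col9a3 was also called higher, at 6.26, 3.95 and 4.8 CPM (log2 fold change 1.05, SE 0.42, edgeR adjusted p = 0.029), but the call was lost without lot 26 and without lot 30. The 3′ end of Col9a3 (chr2:180597790-180622189, plus strand) overlaps exons of Tcfl5 by 234 bases on the opposite strand, and Tcfl5, a germ cell transcription factor, was at 70.1 to 82.4 CPM in germ-like cells and 0.556 ± 0.0878 in pre-granulosa-like cells. Its part in the Col9a3 count was not tested. Col1a1, Col6a3 and Col14a1 were called higher as well, at 20.4 ± 9.29, 3.06 ± 1.76 and 2.28 ± 0.511 CPM in germ-like cells. The lots of the first 2 overlapped those of pre-granulosa-like cells, and with called doublets removed the Col1a1 difference was 0.33 (adjusted p = 0.419) and all 3 calls were lost. Germ-like cells carried 85.5 to 153 CPM of the stromal markers, and the part of stromal RNA in these differences was not tested.

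Sertoli-like cells had a set of collagens whose lots lay above those of the next named class. Collagen II forms the fibrils of cartilage and vitreous, and collagen IX is associated with them. Col2a1 had 88.2, 131 and 118 CPM in Sertoli-like cells against 0.275, 0.594 and 0.259 in pre-granulosa-like cells. The 3 chains of collagen IX, which sits on the surface of collagen II fibrils, had 63, 79.7 and 55.4 CPM for Col9a1, 287, 333 and 225 for Col9a2 and 952, 949 and 890.1 for Col9a3. In pre-granulosa-like cells these 3 chains were at means of 0.167 ± 0.113, 27.3 ± 2.04 and 2.32 ± 0.945 CPM. All Sertoli-like lots, including lot 30 with its 16 cells, lay above all pre-granulosa-like and stromal-like lots for these 4 genes. Col27a1, a fibrillar collagen of cartilage, had 164, 178 and 126 CPM, and Col14a1, a fibril-associated collagen, 265, 177 and 133, above the 48.5, 51 and 44.4 of stromal-like cells. Col18a1 had 1098, 1109 and 971 CPM in Sertoli-like cells and was higher there than in endothelial-like cells in every lot. Col8a2, a short-chain network collagen, had 8.16, 9.61 and 14.8 CPM, which overlapped the 9.26, 6.17 and 7.84 of stromal-like cells.

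The DNA before Col9a1 is shown as the example of this set. The 250 bases before the first of its 2 RefSeq starts lie at chr1:24177360-24177609 in GRCm38.p6, plus strand.
Col9a1: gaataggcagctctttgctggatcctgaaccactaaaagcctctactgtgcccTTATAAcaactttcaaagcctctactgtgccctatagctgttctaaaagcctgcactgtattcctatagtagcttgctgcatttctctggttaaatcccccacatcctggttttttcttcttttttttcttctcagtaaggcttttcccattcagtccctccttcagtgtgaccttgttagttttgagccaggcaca
They held TATAA, as did the Col3a1 stretch, and neither of the other 2 motifs.

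A comparison of Sertoli-like with pre-granulosa-like cells, the supporting cells of testis and ovary, was added after the data had been seen, in a fit of 13828 genes that included the Sertoli-like sums. Of 33 collagens tested there, 10 were higher in Sertoli-like cells (15.2% of all genes) and 13 were lower (22.6% of all genes), and the medians were -0.07 for the collagens and -0.16 for all genes. The largest differences were in Col9a1, by a log2 fold change of 8.64 (SE 0.44, edgeR adjusted p = 3.27e-13), Col9a3, by 8.52 (SE 0.40, edgeR adjusted p = 2.61e-15), Col2a1, by 8.17 (SE 0.43, edgeR adjusted p = 1.3e-13), and Col14a1, by 7.70 (SE 0.34, edgeR adjusted p = 5.54e-15). Col27a1 (4.32), Col8a2 (3.61), Col18a1 (3.53), Col9a2 (3.27), Col25a1 (2.03, from 9 UMIs) and Col4a2 (0.83) were the others. On the other side, Col12a1 was at 10.4, 8.24 and 14.8 CPM in Sertoli-like cells (log2 fold change -3.42, SE 0.30, edgeR adjusted p = 8.05e-10), and Col6a1 (-1.74), Col5a2 (-1.72) and Col3a1 (-1.09) were lower too. Col1a1 was not called (log2 fold change 0.86, SE 0.47, edgeR adjusted p = 0.163). Without lot 26, 29 or 30 the higher calls numbered 9, 11 and 10, and the lower ones 10, 7 and 9, so that leaving out lot 29, which gave 286 of the 390 cells, cost the most lower calls.

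Because collagens II and IX mark cartilage, a list of cartilage genes was read beside them. Its 5 genes in the tables (Acan, Matn1, Hapln1, Sox5 and Sox6) summed to 65.2 to 73.9 CPM in Sertoli-like cells and 68.1 to 89.5 in pre-granulosa-like cells. Sox6 was at 14.1, 17.3 and 22.2 CPM in Sertoli-like against 1.42, 1.85 and 1.98 in pre-granulosa-like cells, and Sox5 at 37.8, 43.1 and 40.6 against 75.5, 55.8 and 71.8, so these transcription factor genes lay apart in opposite directions in all lots. Acan, the main cartilage proteoglycan, was at 10.4, 3.02 and 7.39 against 9.73, 6.99 and 8.06 CPM, with overlap, Hapln1 at 2.97, 5.49 and 3.69 against 2.84, 3.4 and 3.76, also with overlap, and Matn1 at 0 in Sertoli-like cells.

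**Figure D5:**
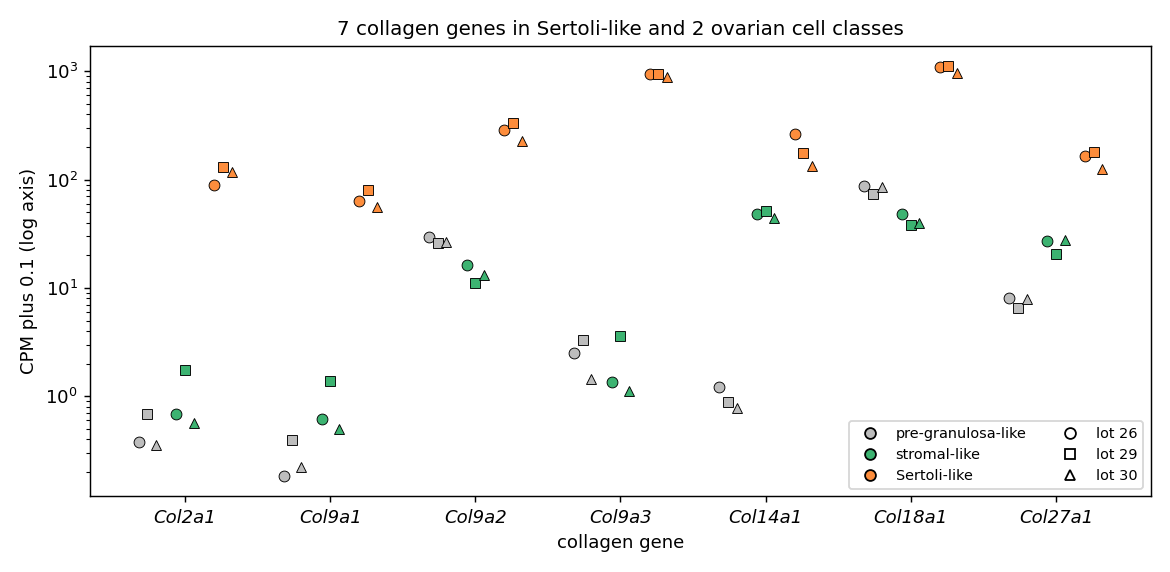
CPM plus 0.1 on a log axis of Col2a1, Col9a1, Col9a2, Col9a3, Col14a1, Col18a1 and Col27a1 (horizontal axis) in pre-granulosa-like, stromal-like and Sertoli-like cells; each point is 1 lot. The 3 Sertoli-like points lie above all the points of the other 2 classes in each gene, with Col9a3 at 890 to 952 CPM.

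The enzymes, chaperones and receptors that collagens need were followed through a list of 71 symbols, of which 67 were in the tables and 55 were tested. Between stromal-like and pre-granulosa-like cells, 38 of the 55 were higher in the stroma, 2 were lower and 15 were not called, with a median log2 fold change of 0.95, beside the 22.6% and 26.1% of all genes given above. Collagen chains are first hydroxylated and glycosylated, and 10 of 13 such enzymes were higher, among them the lysyl hydroxylase Plod2, at 68.1, 79.9 and 74.6 against 13.4, 12.3 and 14.1 CPM (log2 fold change 2.36, SE 0.11, edgeR adjusted p = 4.07e-14), and the prolyl 3-hydroxylases P3h2 (2.62) and P3h3 (1.04). Of 9 folding and export genes 3 were higher, by small steps, namely Fkbp14 (0.90), Fkbp10 (0.72) and Serpinh1 (0.68), the collagen chaperone, which was at 591, 629.9 and 688 CPM in stromal-like and 336, 356 and 398 in pre-granulosa-like cells. The other 6 folding genes were not called.

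Procollagen is cleaved outside the cell, and 5 of 7 cleavage genes were higher in the stroma. The named ones were Adamts14 (4.14), Adamts2 and Tll1 (2.03). Adamts2 was at 53.2, 32.9 and 39 against 7.78, 4.88 and 6.33 CPM (log2 fold change 2.59, SE 0.22, edgeR adjusted p = 5.17e-10). Tll1 was at means of 0.154 CPM in stromal-like and 0.0309 CPM in pre-granulosa-like cells. Of 6 cross-linking genes 5 were higher, including the lysyl oxidases Lox (4.22), Loxl1, at 81.1, 47.3 and 66.8 against 6.68, 4.72 and 5.83 CPM (log2 fold change 3.37, SE 0.23, edgeR adjusted p = 1.34e-11), and Loxl2 (2.11). Among assembly partners, 3 of 4 were higher, with the fibronectin gene Fn1 at 169.6, 145 and 162 against 6.34, 5.24 and 7.07 CPM (log2 fold change 4.54, SE 0.18, edgeR adjusted p = 2.03e-15), and with Fmod (1.69) and Sparc (1.53).

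Of 7 collagen receptors 5 were higher in the stroma and 1 was lower. The kinase receptor Ddr2, which binds fibrillar collagens, was at 25.1, 23.5 and 23.6 against 1.14, 0.594 and 0.897 CPM (log2 fold change 4.61, SE 0.23, edgeR adjusted p = 3e-13), and the integrin chain Itga1 (3.26) and the uptake receptor Mrc2 (1.18) were higher too. Of 9 genes of collagen breakdown and its inhibitors 7 were higher and 1 was lower, with Mmp2, a gelatinase, at 186, 137 and 163 against 13.3, 9.27 and 12.8 CPM (log2 fold change 3.65, SE 0.20, edgeR adjusted p = 3.29e-13), Mmp9 at 1.96 ± 0.738 CPM (5.14) and Ctsk at 8.03 ± 0.371 CPM (1.99). In the other comparisons the higher and lower genes of the 55 numbered 37 and 3 for stromal-like against epithelial-like cells (16.9% and 14.5% of all genes), 18 and 9 for epithelial-like against pre-granulosa-like cells (20.4% and 25%), 5 and 31 for endothelial-like against stromal-like cells (14.1% and 21.4%), and 14 and 31 for germ-like against pre-granulosa-like cells (35.2% and 39.1%). The share of the 55 lay under that of all genes for the lower genes in the first 2 of these comparisons and for the higher genes in the last 2. Not every named pathway gene was highest in the stroma among the 5 largest tested classes. Epithelial-like means exceeded stromal-like ones for Lox (6.29 against 6.13 CPM) and Fmod (15.8 against 3.56). Endothelial-like means exceeded stromal-like ones for Sparc (2446 against 1754), Itga1 (7.88 against 6.17) and Tll1 (2.24 against 0.154). Fkbp10 was at 75.0 CPM in both stromal-like and endothelial-like cells, and the rest had their highest mean in the stroma.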

How the data were processed

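The 3′ single-cell libraries of 3 lots of thawed FOSCs were analysed. The authors whitelisted barcodes and counted UMIs with UMI-tools, aligned reads with STAR 2.7 to GRCm38, kept uniquely mapped reads and assigned them with featureCounts 2.0.1, and deposited UMI counts per gene and barcode. The strand setting and annotation release are not given in the sources used here, so overlapping genes are uncertain: 13 of the 44 collagen genes have an exon that overlaps another gene's, 10 of them on the opposite strand. Kept UMIs numbered 125898949, 87474664 and 141398825 in lots 26, 29 and 30.

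Barcodes were clustered with Seurat 5.3.0 (R 4.3.3) on 1970 variable genes with 50 components at resolution 0.8, which left 30 collagen and pathway genes out of the 2000 chosen. UMIs were summed per class and lot (21 sums of 7 classes, 184947 to 57954974 UMIs) and tested with edgeR 4.0.16 (quasi-likelihood, TMM, filterByExpr, class means), with Benjamini-Hochberg adjustment over all genes tested. Sertoli-like sums were left out of the main fit, as were unnamed clusters. Genes at a class mean of 10 CPM or more were described with each lot's level, and in the pathway list the 3 largest called differences of each role between stromal-like and pre-granulosa-like cells were named. Called doublets (Scrublet in scanpy 1.11.5, 4.06 to 5.93% of a lot) were kept, and removed as an alternative, as were other normalizations, filters, resolutions, DESeq2 1.42.0 and fits without each lot. On simulated data for stromal-like against pre-granulosa-like cells (13880 genes), 44.6% of 1.5-fold, 82.8% of 2-fold and 95.3% of 4-fold changes were recovered, with 8.33% false calls. Sums of 1 lot come from the same pool; over 63 pairs of sums their deviations correlated at a median r of 0.151, with 42 pairs over 0.1. The genes, lists and comparisons were chosen with earlier results of these data known. Protein sequences were not analysed here.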

Additional observations from a re-analysis of the deposited data

Results flagged for a closer look

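Classes outside the main comparisons held collagen levels whose lowest lot lay above the highest lot of each of the 7 tested classes, and these are given as means over the lots with no test. In the Sertoli-like class they were Col2a1 at 112 CPM, Col9a1 at 66.0, Col9a2 at 282, Col9a3 at 930.3, Col14a1 at 191, Col18a1 at 1060, and Col27a1 at 156.

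An unnamed cluster of 728 cells, led by Lars2 and Nfat5, with a median UMI count 0.242 times that of its lots, had Col4a5 at 121 CPM, Col4a6 at 18.1, Col5a1 at 152, Col6a1 at 176, Col6a6 at 12.9, Col7a1 at 17.3, Col11a1 at 65.6, Col12a1 at 251, Col16a1 at 58.6, Col22a1 at 17.1 and Col27a1 at 71.0 CPM. These 11 genes span the fibrillar, basement membrane and other kinds, and the part of the low depth in their levels was not tested.

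An unnamed cluster of 428 cells, led by the steroidogenic genes Cyp11a1 and Insl3, had Col23a1 at 32.9 CPM. In the 53 chromaffin-and-Schwann-like cells, Col2a1 was at 14.1 CPM, Col7a1 at 15.3 and Col9a3 at 59.8.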

How the results depend on the processing

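The 116 calls of described genes were repeated under 21 settings, giving 2378 values, of which 2318 stayed on their side of the threshold, 60 lost the call and 0 changed direction. Thinning all sums to the smallest sum, 184947 UMIs, cost 21 of 58 calls and left, for stromal-like against pre-granulosa-like cells, 7 collagens higher and 1 lower, against epithelial-like cells 8 and 0, for epithelial-like against pre-granulosa-like cells 3 and 1, for endothelial-like against stromal-like cells 7 lower, and for germ-like against pre-granulosa-like cells 0 higher and 6 lower, so the counts depend on depth. The collagens lower in stromal-like than in epithelial-like cells numbered 2 instead of 1 with no filter on low counts, with only the 2 classes in the fit, with Sertoli-like sums added and without the Foxd1 and Dkk2 cluster. The collagens higher in germ-like cells numbered 11 instead of 7 with stricter cell filters and with no filter on low counts. The fibrillar collagen CPM in stromal-like cells was 2602 at resolution 0.4 and 2282 as a mean of per-cell CPM, and the fibrillar collagen CPM in endothelial-like cells was 172 with doublets removed. With Col15a1, Col18a1 and Col7a1 counted as basement membrane, the basement membrane collagen CPM in stromal-like cells was 517, the basement membrane collagen CPM in pre-granulosa-like cells 313 and the basement membrane collagen CPM in epithelial-like cells 233.

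With the lot as a replicate block, the pairing by pool, 3 collagens instead of 1 were lower in stromal-like than in epithelial-like cells, and the block moved no other count by over 1.5 times and cost 0 of the 116 calls.

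Without 1 lot each, collagens higher and lower numbered 25 to 29 and 4 to 4 (stromal-like against pre-granulosa-like), 29 to 33 and 1 to 2 (stromal-like against epithelial-like), 12 to 15 and 9 to 11 (epithelial-like against pre-granulosa-like), 4 to 4 and 22 to 25 (endothelial-like against stromal-like) and 5 to 9 and 17 to 19 (germ-like against pre-granulosa-like). Leaving out lot 26, 29 or 30 cost 8, 1 and 9 of the 116 calls.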

Other observations

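An unnamed cluster of 428 cells, led by the steroidogenic genes Cyp11a1 and Insl3, had collagen IV levels above and collagen I levels below those of the stromal-like class. Col4a1 was at 681, 541 and 763 CPM and Col4a2 at 344, 258 and 343 CPM in lots 26, 29 and 30, above the stromal-like class (272, 233 and 239.8 and 155, 123 and 136 CPM) in every lot. Col1a1 in this cluster was at 97.5, 54.1 and 111 CPM (131, 266 and 31 cells), against 476, 379 and 422 in stromal-like, 121, 64.4 and 68.4 in epithelial-like and 11.5, 7.72 and 11.1 in pre-granulosa-like cells, so its range overlapped the epithelial-like one and lay above the pre-granulosa-like one. This cluster entered no test.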
